A study of Mus musculus with 8 samples.

Results

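The genes described here are 6 members of a pair of signalling systems of the trabeculating heart: the neuregulin ligand NRG1 with the ErbB receptors (Nrg1, Erbb2, Erbb3 and Erbb4), and ephrin-B2 with its receptor EphB4 (Efnb2 and Ephb4). They were chosen by name and found by their mouse Ensembl identifiers and are 6 of the 49315 genes in the count tables. The comparison is between wild-type (WT) hearts and hearts homozygous for Tbx20EH1Mut, a knock-in that replaces 2 residues in the engrailed homology 1 (EH1) domain of the T-box transcription factor Tbx20, through which Tbx20 binds TLE corepressors. The study mated founders of the mutant line to C57BL/6J females, back-crossed the line and lists wild-type C57/Bl6 mice. Both groups consist of whole hearts collected at embryonic day (E) 9.5. There were 4 libraries per genotype, with RNA of 3 hearts pooled in each library. The mutation was made by CRISPR/Cas9 editing in the germline, so every cell of the mutant embryos carries it, and the study describes mutant hearts at this stage as unlooped tubes without recognisable chambers. The libraries are labelled as separate samples of each genotype.

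NRG1 is an EGF-like growth factor made by the endocardium, the endothelial lining of the heart. It binds ErbB4, and elsewhere ErbB3, on neighbouring cells, and these receptors signal as dimers with ErbB2, which has no known ligand of its own. In the embryonic ventricle this exchange between endocardium and myocardium is required for trabeculae, the muscular ridges that grow into the lumen. Ephrin-B2 is a transmembrane ligand of arterial endothelium and endocardium, EphB4 is a receptor tyrosine kinase known mainly from venous endothelium and endocardium, and loss of either arrests remodelling of vessels and heart in the mouse.

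A few facts of the whole data set bear on these genes. Total counts ran from 33359322 to 49523086 per WT library and from 36250675 to 38357025 per mutant library. *Tbx20* itself, whose transcript the substitution leaves in place, fell without overlap, from 368 ± 11.1 CPM (mean ± SD, n = 4; CPM is the count scaled to a common library size) in WT hearts to 267 ± 44.9 CPM in mutant hearts (log2 fold change −0.46, SE 0.133, edgeR adjusted p = 0.0273), a level that does not check the genotype labels, since the substitution changes the protein. The 16 cardiomyocyte markers summed to between 41421 and 49119 CPM in WT libraries and between 38267 and 55442 CPM in mutant libraries, so the transcripts of heart muscle that the label implies were abundant in all 8. WT replicate 2 stood apart from the other 7 libraries in a trend with gene length, and WT replicate 1 lay within the mutant range and apart from the other WT libraries. Taking each gene's log2 deviation from its mean over the 8 libraries, the median over long genes (at least 5839.5 exon bases) minus that over short genes (at most 2018) was −0.20 in WT replicate 1, 0.70 in WT replicate 2, 0.11 and 0.13 in WT replicates 3 and 4, and between −0.38 and −0.15 in the mutant libraries. The trend averaged 0.18 over WT and −0.24 over mutant libraries, and WT replicates 3 and 4 lay above every mutant library. It thus goes with genotype, and leaving out WT replicates 1 and 2 does not remove it. The values of the 6 genes are therefore given with and without these 2 libraries, and also with the trend entered as an offset.

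Of the 6 genes, 2 passed the test between genotypes: *Efnb2* rose and *Erbb2* fell in mutant hearts, each by about the same amount on the log2 scale. *Nrg1* had a lower mean in mutant hearts but missed the threshold, *Erbb3* varied too much between libraries for a call, and *Erbb4* and *Ephb4* differed between genotypes by less than the spread between replicates. Within a library, the ratio between partners differed between genotypes for *Efnb2* to *Ephb4*, *Nrg1* to *Erbb4* and *Erbb2* to *Erbb4*. The test was edgeR's quasi-likelihood test on all 17163 genes that passed a filter on low counts, with Benjamini-Hochberg adjustment over all of them and a call at an adjusted p of at most 0.05.

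Those 2 of 6 genes have to be read against a background in which 29.3% of all tested genes passed: 14% of all tested genes were higher and 15.3% lower in the mutant. Requiring in addition an absolute log2 fold change over 0.5 leaves 24.6% of all genes and, of the 6, *Erbb2* alone. On the CPM used throughout, which are scaled by TMM (edgeR's correction of library sizes for RNA composition), the genotypes did not overlap for 3 of the 6 genes, *Nrg1*, *Efnb2* and *Erbb2*, and did not overlap for 30.5% of all tested genes. With library size alone, an alternative chosen after seeing the data, they did not overlap for 1 of the 6, *Efnb2*, and for 29.7% of all tested genes. The share of calls among the 6 genes is thus close to that among all genes. With 2406 higher and 2618 lower calls over all genes, 47.9% of calls were on the higher side, and upper-quartile scaling moved that to 58.9%, with a shift of the median log2 fold change of all genes from 0.0048 to 0.089.

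**Figure D1:**
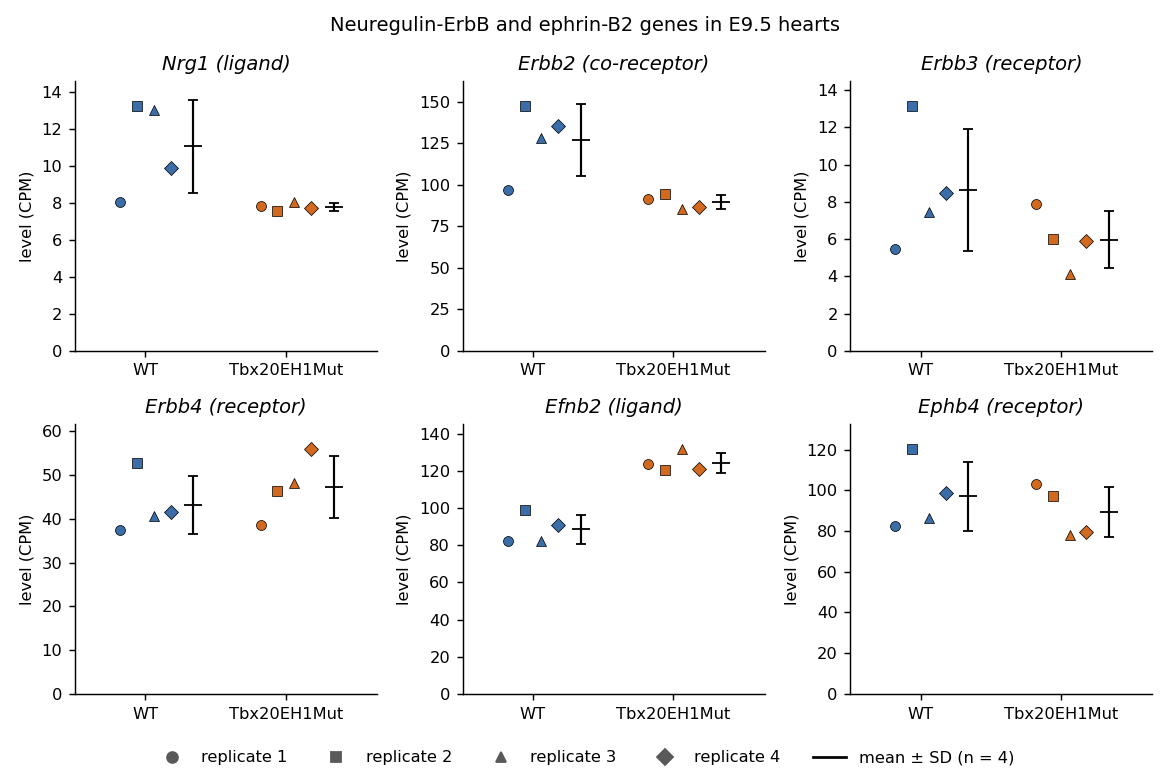
Level of each of the 6 genes in CPM (linear axes from 0) in the 4 WT and 4 Tbx20EH1Mut libraries. Symbols mark the replicate, and the bars beside them are the mean ± SD; the genotypes do not overlap for Nrg1, Erbb2 and Efnb2 on this scale (with library size alone, for Efnb2 only), and WT replicate 2 is the highest WT library in all 6 panels.

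*Nrg1*, the endocardial ligand of the ErbB system (ENSMUSG00000062991, GRCm38 chr8:31814551-32884029, minus strand, 10351 exon bases), was at 8.07, 13.3, 13.0 and 9.91 CPM in WT replicates 1 to 4. In mutant replicates 1 to 4 it was at 7.82, 7.57, 8.06 and 7.74 CPM. The mutant libraries lay within a narrow band whose top was level with the lowest WT library, and the WT libraries were spread, with a coefficient of variation of 22.8% against 2.65%. With library size alone the genotypes overlapped, mutant replicate 1 at 8.09 CPM on that scale being above WT replicate 1 at 7.97. The means were 11.1 ± 2.53 and 7.80 ± 0.206 CPM (SD, n = 4 each), which gave a log2 fold change of −0.51 (SE 0.179) at an edgeR adjusted p of 0.0563. Permuting the 8 TMM-scaled library values in an exact, two-sided test gave an unadjusted permutation p of 0.0286, the smallest that 4 libraries against 4 can give. The values rest on 258 to 655 counts per library, the lowest depth of the 6 genes beside *Erbb3*. In whole hearts, fewer cells of a type and less RNA per cell cannot be told apart, here or in any result that follows.

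The call on *Nrg1* turned on single libraries and on the tool. Without WT replicate 1 the log2 fold change was −0.64 (edgeR adjusted p = 0.0124), and without WT replicates 1 and 2 together, an alternative chosen after seeing the data, it was −0.56 (edgeR adjusted p = 0.0416). DESeq2 gave −0.52 with an adjusted p of 0.0303. With each library's length trend entered as an offset, also chosen after seeing the data, the edgeR estimate was −0.39 with an adjusted p of 0.0957. A predicted gene on the other strand, Gm26578, shares 482 of the exon bases of *Nrg1*, and the strand setting of the counting is not given in the sources used here. It held 138 counts over all libraries against 3164 for *Nrg1*.

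*Efnb2*, which encodes ephrin-B2 (ENSMUSG00000001300, GRCm38 chr8:8617434-8661242, minus strand, 6855 exon bases), was at 82.1, 98.9, 82.5 and 90.7 CPM in WT replicates 1 to 4. It was at 123.8, 120.6, 132.0 and 121.1 CPM in mutant replicates 1 to 4. Every mutant library was above every WT library, and the gap between the groups was wider than the range within either. *Efnb2* rose from 88.6 ± 7.95 to 124 ± 5.29 CPM (SD, n = 4 each), 1.40-fold, with a log2 fold change of 0.49 (SE 0.101; edgeR adjusted p = 0.00679). The rise held without any 1 of the 8 libraries, at log2 fold changes between 0.45 and 0.56, and was 0.52 (edgeR adjusted p = 0.0108) without WT replicates 1 and 2 together and 0.58 (edgeR adjusted p = 0.00401) with the length offset.

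*Erbb2*, the ligandless partner receptor (ENSMUSG00000062312, GRCm38 chr11:98412470-98437716, plus strand, 5210 exon bases), was at 96.8, 147.8, 128.5 and 135.2 CPM in WT replicates 1 to 4. In the mutant libraries it was at 91.7, 94.7, 85.6 and 86.9 CPM. WT replicate 1 stood nearer to the mutant libraries than to the other WT libraries, and no value of one genotype reached into the other; with library size alone they overlapped, mutant replicate 2 at 96.1 CPM on that scale being above WT replicate 1 at 95.7. *Erbb2* fell from 127 ± 21.7 to 89.7 ± 4.23 CPM (SD, n = 4 each), to 0.706 of the WT level, with a log2 fold change of −0.50 (SE 0.133; edgeR adjusted p = 0.0198). The adjusted p of the edgeR test exceeded 0.05 when WT replicate 3 (0.0537), WT replicate 4 (0.0621) or mutant replicate 4 (0.0623) was left out, with log2 fold changes between −0.62 and −0.41 over the 8 fits that leave out 1 library. Without WT replicates 1 and 2 together the fall was −0.56 (edgeR adjusted p = 0.00745), and with the length offset −0.40 (edgeR adjusted p = 0.0226). *Mien1* on the other strand shares 9 exon bases with *Erbb2* and held 14010 counts over all libraries against 36218 for *Erbb2*.

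The 250 bases upstream of the annotated start of *Efnb2* and *Erbb2*, the genes that passed the test, are shown because the mutated factor is a DNA-binding T-box protein, and these are the start regions of the 1 gene that rose and the 1 gene that fell. They are taken from RefSeq on GRCm38.p6, at chr8:8661243-8661492 on the minus strand for *Efnb2* and at chr11:98412234-98412483 on the plus strand for *Erbb2*, whose RefSeq start lies 14 bases from the gene start in the count tables. Both are written 5′ to 3′ along the gene's own strand. Capitals mark the CCAAT box (CCAAT, or ATTGG on the other strand) and the GC box (GGGCGG, or CCGCCC on the other strand), motifs picked after the sequences had been read.
Efnb2: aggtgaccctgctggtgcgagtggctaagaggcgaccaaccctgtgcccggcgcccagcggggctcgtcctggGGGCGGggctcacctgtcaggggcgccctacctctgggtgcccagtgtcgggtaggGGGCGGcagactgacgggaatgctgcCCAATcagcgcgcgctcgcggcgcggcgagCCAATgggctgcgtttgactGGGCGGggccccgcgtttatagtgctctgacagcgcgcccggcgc
Erbb2: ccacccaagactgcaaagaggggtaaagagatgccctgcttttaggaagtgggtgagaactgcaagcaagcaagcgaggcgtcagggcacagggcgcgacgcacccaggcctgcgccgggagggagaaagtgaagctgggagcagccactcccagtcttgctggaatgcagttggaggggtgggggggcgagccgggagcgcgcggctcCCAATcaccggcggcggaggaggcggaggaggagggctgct

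The *Efnb2* stretch is 72% G and C and holds 2 CCAAT boxes, starting 95 and 65 bases before the start site, and 3 GC boxes, starting 177, 121 and 45 bases before it. The *Erbb2* stretch is 66% G and C and holds 1 CCAAT box, starting 41 bases before the start site, and no GC box. Of 32851 promoter stretches of this length, 33.8% hold a CCAAT box and 32.7% a GC box. Neither stretch holds the letters GGTGTG of a T-box core, which 16.3% of promoters hold on either strand, or TGGGAA of an RBPJ core, which 21.6% hold. That says only that these letters are absent from these windows, and no binding was measured in these libraries. The tables used here also hold *Erbb4* and *Ephb4*, so 4 of the 6 genes were matched. *Ephb4*, which was not called, holds 1 CCAAT box and 4 GC boxes, and *Erbb4* holds neither. *Nrg1* and *Erbb3* were not matched.

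*Erbb4*, the myocardial receptor for NRG1 (ENSMUSG00000062209, GRCm38 chr1:68032186-69108059, minus strand, 12355 exon bases), was at 37.6, 52.8, 40.7 and 41.6 CPM in WT replicates 1 to 4 and at 38.5, 46.4, 48.2 and 56.0 CPM in mutant replicates 1 to 4. The ranges overlapped almost completely. The means were 43.2 ± 6.64 and 47.3 ± 7.19 CPM (SD, n = 4 each), and the log2 fold change was 0.13 with a 95% interval from −0.19 to 0.45 (edgeR adjusted p = 0.514). That interval holds changes of either sign, so an equal level is not shown. Without WT replicates 1 and 2 the log2 fold change was 0.20 (edgeR adjusted p = 0.344), and with the length offset 0.23 (edgeR adjusted p = 0.196).

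*Erbb3*, a receptor with an impaired kinase that is known from endocardial cushions and neural crest (ENSMUSG00000018166, GRCm38 chr10:128567523-128589652, minus strand, 6016 exon bases), was at 5.49, 13.2, 7.43 and 8.47 CPM in WT replicates 1 to 4 and at 7.87, 6.03, 4.13 and 5.88 CPM in mutant replicates 1 to 4. WT replicate 2 was the highest and mutant replicate 3 the lowest, and the other libraries overlapped. The log2 fold change was −0.53 (SE 0.283), as large as that of *Erbb2*, but its 95% interval ran from −1.16 to 0.10 (edgeR adjusted p = 0.176), and leaving out 1 library at a time moved the estimate between −0.70 and −0.24. Without WT replicates 1 and 2 it was −0.41 (edgeR adjusted p = 0.266), and with the length offset −0.43 (edgeR adjusted p = 0.162). Only 132 to 647 counts per library lay behind these values.

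*Ephb4*, the receptor for ephrin-B2 (ENSMUSG00000029710, GRCm38 chr5:137350109-137378669, plus strand, 4640 exon bases), was at 82.3, 120.5, 86.5 and 98.8 CPM in WT replicates 1 to 4 and at 102.9, 97.1, 78.0 and 79.7 CPM in mutant replicates 1 to 4. The highest value was in WT and the lowest in mutant, with the rest intermixed. Its log2 fold change was −0.12 with a 95% interval from −0.45 to 0.21 (edgeR adjusted p = 0.572), and its sign turned, to 0.015, without WT replicate 2. Without WT replicates 1 and 2 it was −0.05 (edgeR adjusted p = 0.820), and with the length offset also −0.05 (edgeR adjusted p = 0.767). *Zan* on the other strand shares 33 exon bases with *Ephb4* and held 43 counts against 30632.

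All 6 genes had their lowest WT value in replicate 1 and their highest in replicate 2, the libraries at either end of the length trend among WT libraries. The exons of the 6 genes sum to between 4640 and 12355 bases each, against a median of 3568 bases over all tested genes, so all are longer than a typical gene. Mutant libraries did not share such an order, since the highest mutant library was replicate 1 for *Erbb3* and *Ephb4*, replicate 2 for *Erbb2*, replicate 3 for *Nrg1* and *Efnb2* and replicate 4 for *Erbb4*.

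**Figure D2:**
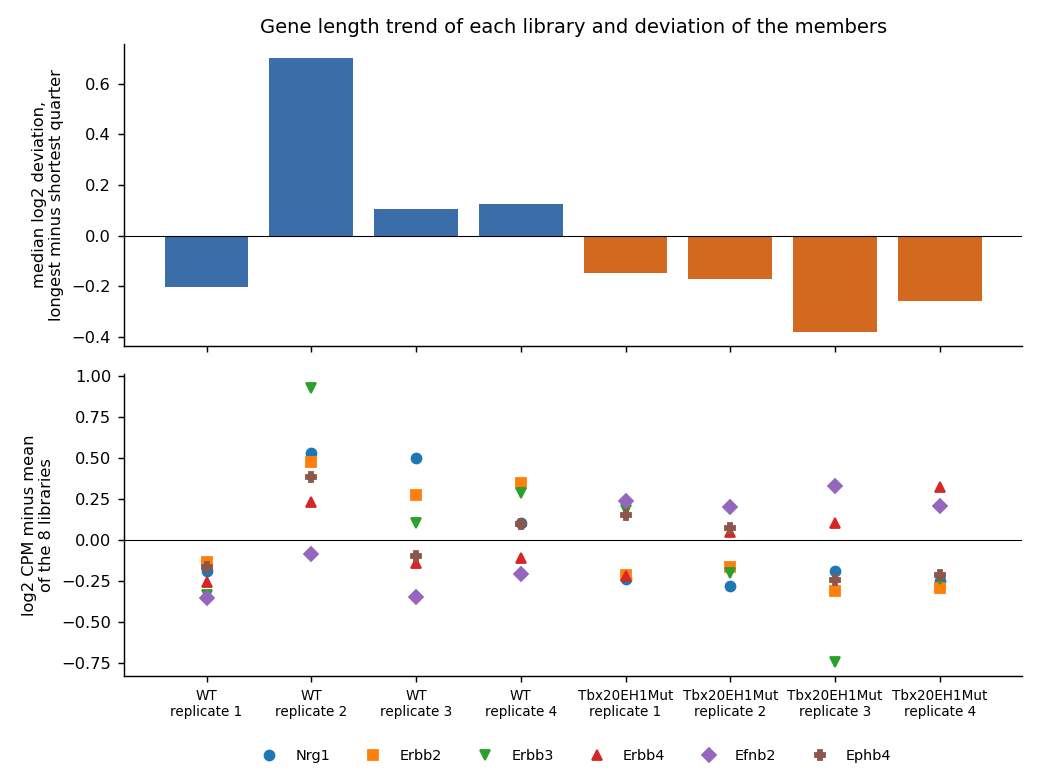
Upper panel, for each library, the median log2 deviation from the mean of the 8 libraries over long genes (at least 5839.5 exon bases) minus that over short genes (at most 2018). Lower panel, the log2 CPM of each of the 6 genes minus its mean over the 8 libraries; all 6 genes are higher in WT replicate 2 (trend 0.70) than in WT replicate 1 (trend −0.20), and Efnb2 is above 0 in every mutant library and below 0 in every WT library.

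Compared per length, as CPM per kilobase of exon, the genes spanned a wide range of levels in both genotypes. In WT hearts *Erbb2* stood highest at 24.4 ± 4.16, followed by *Ephb4* at 20.9 ± 3.69, and these neighbours overlapped. *Efnb2* followed at 12.9 ± 1.16 and *Erbb4* at 3.49 ± 0.538, each apart from its neighbours, and *Erbb3* at 1.44 ± 0.543 and *Nrg1* at 1.07 ± 0.244 overlapped at the bottom (SD, n = 4). In mutant hearts *Ephb4* at 19.3 ± 2.68, *Efnb2* at 18.1 ± 0.772 and *Erbb2* at 17.2 ± 0.812 lay together at the top, each overlapping the next. *Erbb4* was at 3.83 ± 0.582, and *Erbb3* at 0.994 ± 0.255 and *Nrg1* at 0.753 ± 0.0199 again overlapped at the bottom. On this scale, message for the ligand NRG1 and for ErbB3 was thus scarce beside that for ErbB2 in whole hearts of either genotype. Without division by length, *Nrg1* and *Erbb3* were at 11.1 and 8.64 CPM in WT hearts against 127 CPM for *Erbb2*. *Efnb2*, which lay below every *Ephb4* and *Erbb2* library in WT hearts per kilobase, overlapped its neighbours in the mutant. The lengths cover all annotated exons, and which isoforms these hearts make was not measured, so the order of genes per kilobase is approximate.

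The balance between partners was compared within each library as the log2 ratio of levels per kilobase, in which the scaling of libraries cancels. Differences between genotypes were tested with exact two-sided permutation tests, adjusted by Benjamini-Hochberg over the 5 ratios. For the ephrin pair, *Efnb2* per *Ephb4* was 0.676, 0.556, 0.645 and 0.621 in WT replicates 1 to 4 and 0.814, 0.841, 1.15 and 1.03 in mutant replicates 1 to 4. The ligand's message was below that of its receptor in every WT library and near or above it in the mutant libraries. The mean ratio went from 0.625 ± 0.0509 to 0.957 ± 0.158 (SD, n = 4 each), a log2 difference of 0.61 (exact permutation p = 0.0286, adjusted 0.0476).

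For neuregulin, *Nrg1* per *Erbb4* was 0.256, 0.30, 0.383 and 0.284 in WT replicates 1 to 4 and 0.242, 0.194, 0.200 and 0.165 in mutant replicates 1 to 4. The ligand was lower per receptor in each mutant library, with mutant replicate 1 close to WT replicate 1. The log2 difference was −0.61 (exact permutation p = 0.0286, adjusted 0.0476). *Nrg1* per *Erbb2*, in contrast, was 0.0438 ± 0.00597 in WT and 0.0439 ± 0.00303 in mutant hearts (SD, n = 4 each), a log2 difference of 0.0095 (exact permutation p = 0.914).

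Among the receptors, *Erbb2* per *Erbb4* was 6.11, 6.64, 7.5 and 7.71 in WT replicates 1 to 4 and 5.65, 4.83, 4.21 and 3.68 in mutant replicates 1 to 4. ErbB2 message exceeded that of ErbB4 in all 8 libraries, by less in each mutant library. The log2 difference was −0.62 (exact permutation p = 0.0286, adjusted 0.0476). *Erbb3* per *Erbb4* differed by −0.63 with overlapping values (exact permutation p = 0.114, adjusted 0.143).

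The adjusted p of the 3 ratios that passed lies just under the threshold and is the smallest this design could give for 3 of 5 ratios. Each of them kept its direction without any 1 library, but passed in 3 of the 8 exact tests that leave out 1, which reach adjusted p-values of 0.0476 to 0.0952. Without WT replicates 1 and 2 together, where 2 libraries against 4 cannot pass, the log2 differences were 0.58 for *Efnb2* per *Ephb4*, −0.73 for *Nrg1* per *Erbb4* and −0.74 for *Erbb2* per *Erbb4*.

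**Figure D3:**
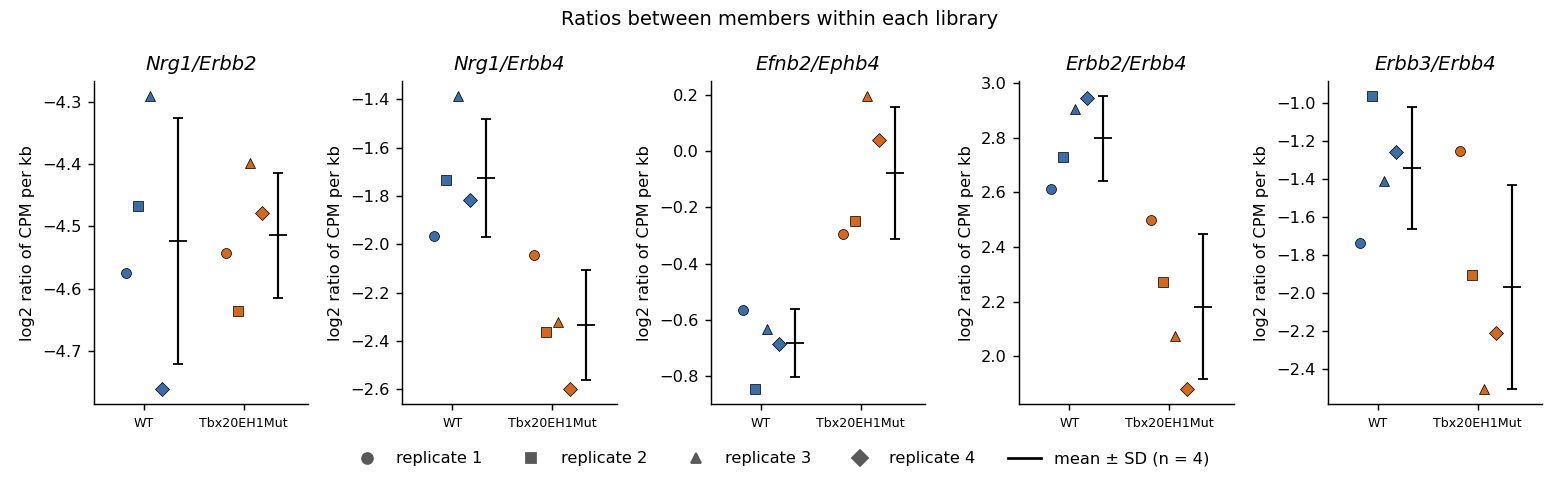
Log2 ratios of CPM per kilobase between partners in each library (symbols mark the replicate, bars the mean ± SD, vertical scales differ between panels and do not start at 0). The genotypes do not overlap for Nrg1/Erbb4, Efnb2/Ephb4 and Erbb2/Erbb4, and overlap for Nrg1/Erbb2 and Erbb3/Erbb4.

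Levels of cell type markers are given beside these genes. Of 18 endothelial and endocardial markers, 9 rose and none fell, or 50% against the 29.3% of all genes, with a median log2 fold change of 0.34. Their summed level was 1249 to 1448 CPM in WT libraries and 1604 to 1723 CPM in mutant libraries, without overlap. Among them *Cldn5*, a tight junction claudin, rose from 5.55 ± 1.73 to 20.8 ± 2.47 CPM, *Sox17*, a transcription factor of arterial endothelium, from 9.20 ± 1.55 to 33.6 ± 2.26 CPM and *Flt1*, a VEGF receptor, from 53.2 ± 7.81 to 107 ± 17.7 CPM. *Plvap*, the most abundant of the list, was at 172 ± 10.6 and 170 ± 14.1 CPM (edgeR adjusted p = 0.924). The 9 markers not called, the others named after their values were seen, went both ways. On the log2 scale *Nfatc1* (−0.42), *Tek* (−0.25), *Fli1* (−0.16), *Eng* (−0.15, without overlap), *Cdh5* (−0.13) and *Plvap* (−0.02) were lower. *Npr3* (0.24), *Tie1* (0.05) and *Erg* (0.0056) were higher, so the class did not rise as a whole. Of 16 cardiomyocyte markers, 1 rose and 2 fell, or 18.8% beside the 29.3% of all genes, with a median of −0.02, the largest change being in *Myh6*, the atrial-type myosin heavy chain (log2 fold change −1.26, SE 0.168, edgeR adjusted p = 0.000866). Leaving out WT replicate 2, 3 or 4 or mutant replicate 2 or 4 left 1 cardiomyocyte marker called, and 5 were called with library size alone and with DESeq2.

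Relative to the mean log2 CPM of the endothelial markers, *Efnb2* differed between genotypes by 0.06 (exact permutation p = 0.543), at 0.78 ± 0.12 in WT and 0.83 ± 0.0641 in mutant hearts (SD, n = 4 each), with overlapping values. *Nrg1*, however, lay at −2.60, −2.01, −2.04 and −2.34 in WT replicates 1 to 4 and at −3.13, −3.15, −3.14 and −3.22 in mutant replicates 1 to 4 on the same log2 scale. All mutant libraries were below all WT libraries, by −0.91 on average (exact permutation p = 0.0286, adjusted 0.0857 over 6 such values). *Ephb4* differed by −0.55, again without overlap (exact permutation p = 0.0286, adjusted 0.0857), and *Erbb3* by −0.93 with overlap (exact permutation p = 0.0571, adjusted 0.114).

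Relative to the cardiomyocyte markers, *Erbb2* differed by −0.43 (exact permutation p = 0.143) and *Erbb4* by 0.19 (exact permutation p = 0.343), both with overlapping values. None of these 6 values passed after adjustment. *Nrg1* and *Ephb4* had the smallest permutation p this design can give. They could have passed only with more of the 6 values at that p, so the missing call does not show that a difference is absent. The marker level was also taken as the logarithm of the summed level instead of the mean logarithm. The differences per endothelial level were then −0.75 for *Nrg1*, 0.22 for *Efnb2*, −0.39 for *Ephb4* and −0.77 for *Erbb3*. Each of these, that of *Efnb2* included, had an adjusted p of 0.0857 (exact permutation test), and none of them passed either. Without WT replicates 1 and 2, where 2 libraries against 4 allow no call, the differences from the mean marker level were −0.97 for *Nrg1*, 0.10 for *Efnb2*, −0.48 for *Ephb4*, −0.87 for *Erbb3*, −0.47 for *Erbb2* and 0.27 for *Erbb4*.

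**Figure D4:**
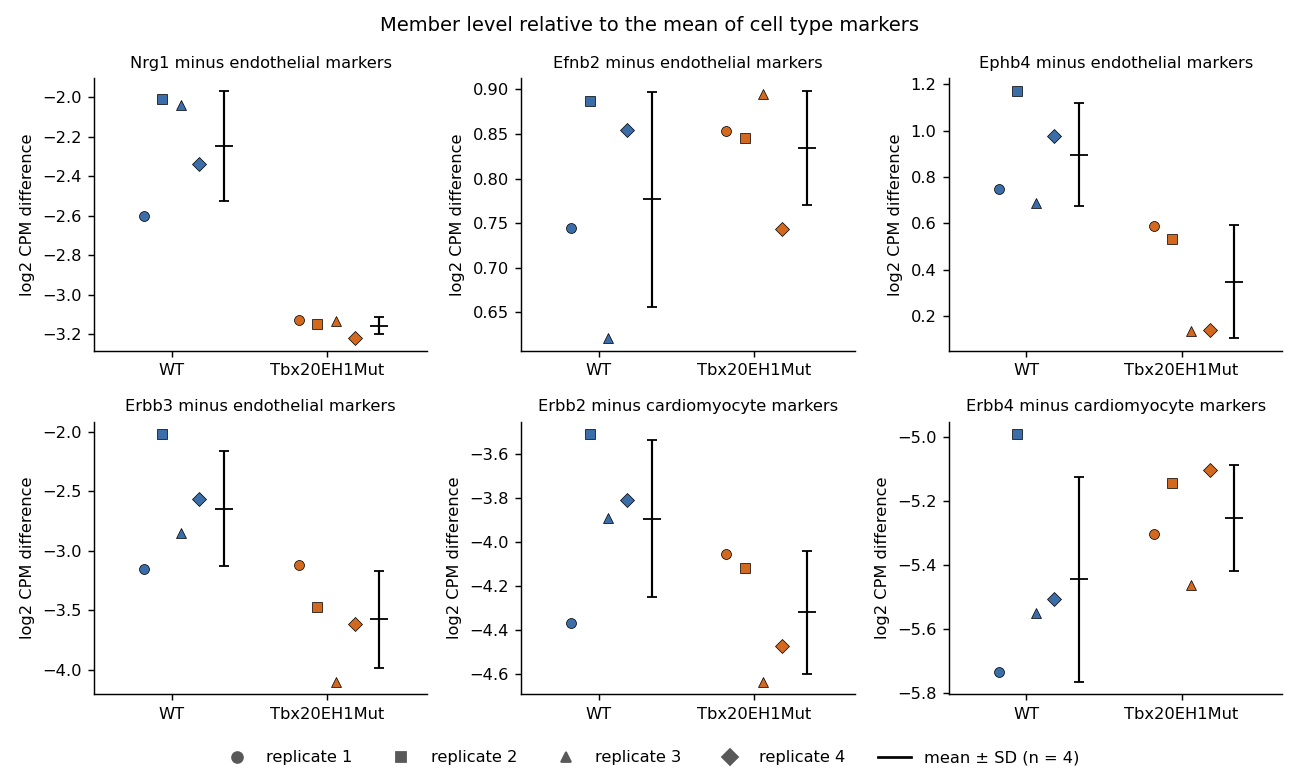
Log2 CPM of Nrg1, Efnb2, Ephb4 and Erbb3 minus the mean log2 CPM of 18 endothelial and endocardial markers, and of Erbb2 and Erbb4 minus that of 16 cardiomyocyte markers, in each library (bars, mean ± SD, n = 4; vertical scales differ between panels). Nrg1 and Ephb4 do not overlap between genotypes, and Efnb2 overlaps, with a mean difference of 0.06.

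Markers of other tissues are read against the same 29.3% of all genes called. The 7 erythroid markers all fell, with summed levels of 1769 to 4616 CPM in WT and 320.1 to 1028 CPM in mutant libraries, *Hbb-y*, an embryonic globin, being the most abundant. Of 12 foregut epithelium markers 5 rose and none fell, with sums of 64.8 to 165 CPM in WT and 270.0 to 581 CPM in mutant libraries, including *Shh*, a morphogen of foregut endoderm, at 1.31 ± 1.83 and 14.9 ± 7.26 CPM. Of the lists for tissues in which *Erbb3* is known, the cushion mesenchyme list had *Snai2*, a factor of epithelial-mesenchymal transition, higher and *Postn* and *Msx1* lower, of 7 tested. In the neural tube list *Pax6* rose and *Tubb3* fell, of 6 tested, with 1 gene left without WT replicate 1, 3 or 4 or mutant replicate 1, 3 or 4, and of 5 epicardial markers *Wt1* alone rose. No listed gene was at 0 in every library, and the part of these tissues in the values of the 6 genes was not tested.

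The other genes of the ErbB system are given by role. Of 7 tested genes among the other ErbB ligands and the receptor *Egfr*, edgeR and limma-voom called 0, and 0 had an unadjusted p under 0.05, beside 29.3% of all genes called and 7403 of 17163 with an unadjusted p under 0.05. DESeq2 and the edgeR fit with no filter called 1 gene, *Epgn*, named after its values were seen, which was too low to pass the filter. *Hbegf*, a membrane-anchored ErbB ligand and the most abundant of the list, was at 19.6 ± 1.73 and 19.8 ± 2.53 CPM (SD, n = 4 each).

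Of 22 genes of ErbB ligand shedding, adaptors and receptor turnover, 4 rose and 4 fell, or 36.4% against the 29.3% of all genes, with a median log2 fold change of −0.17. Without WT replicate 3 or WT replicate 4, 5 were called. *Errfi1*, an inhibitor of ErbB kinases, rose from 19.8 ± 4.51 to 37.3 ± 3.10 CPM (log2 fold change 0.91, SE 0.158, edgeR adjusted p = 0.00306). *Lrig1*, which promotes turnover of ErbB receptors, fell from 30.4 ± 4.26 to 16.6 ± 2.58 CPM (log2 fold change −0.88, SE 0.150, edgeR adjusted p = 0.00288). *Grb7*, an SH2 adaptor of ErbB receptors, rose from 3.72 ± 2.73 to 13.2 ± 7.55 CPM with overlapping libraries (edgeR adjusted p = 0.0309). The other calls, named after their values were seen, were *Pik3r1* and *Stat5b* higher and *Ptpn11*, *Akt1* and *Pik3cb* lower, so the phosphatase SHP2 and the kinase AKT1 downstream of the receptors had less message while the regulatory subunit of PI3-kinase had more. *Nedd4*, a ubiquitin ligase and the most abundant gene of the list, was at 1246 ± 348.7 and 1034 ± 74.3 CPM (edgeR adjusted p = 0.297).

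In the ephrin family, 4 of 7 other ephrins were called, 2 in each direction, beside the 29.3% of all genes. The glycolipid-anchored *Efna1* rose from 32.6 ± 2.82 to 78.1 ± 7.36 CPM (log2 fold change 1.26, SE 0.112, edgeR adjusted p = 0.000107) and *Efna3* from 0.603 ± 0.196 to 1.89 ± 0.337 CPM. The transmembrane *Efnb1* fell from 34.7 ± 9.35 to 16.2 ± 3.0 CPM (log2 fold change −1.10, SE 0.206, edgeR adjusted p = 0.00426) and *Efnb3* from 120 ± 16.6 to 80.0 ± 7.08 CPM (log2 fold change −0.58, SE 0.126, edgeR adjusted p = 0.00846). Of the 3 transmembrane B-class ephrins, *Efnb2* rose and the other two fell, and each kept its direction and passed under all 18 alternatives run, the 8 fits that leave out 1 library included. Of 9 tested Eph receptors other than *Ephb4*, only *Epha3*, named after its values were seen, was called, a share of 11.1%, lower and at 1.12 and 0.467 CPM on average. That call was lost with upper-quartile scaling, without a filter, with the replicate block and without WT replicate 3 or 4 or mutant replicate 2, 3 or 4. *Ephb3*, the most abundant, was at 77.6 ± 17.9 and 62.4 ± 6.65 CPM (edgeR adjusted p = 0.181).

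Among 13 effectors of Eph receptors and ephrins, 1 rose and 2 fell, or 23.1% against the 29.3% of all genes. Their number was 1 with the replicate block, with library size alone and with no filter, 1 or 2 in 6 of the 8 fits that leave out 1 library, and 0 without WT replicate 4 or mutant replicate 4. *Vav2*, a guanine nucleotide exchange factor, fell from 29.5 ± 7.28 to 14.5 ± 5.43 CPM (log2 fold change −1.02, SE 0.286, edgeR adjusted p = 0.0246). *Kalrn*, another exchange factor, fell by 0.48 and *Tiam1*, a Rac exchange factor, rose by 0.47 on the log2 scale, with edgeR adjusted p-values of 0.0435 and 0.0497 and overlapping libraries. *Sdcbp*, a PDZ adaptor of B-class ephrins and the most abundant of the list, was at 148 ± 23.6 and 191 ± 40.3 CPM (edgeR adjusted p = 0.125).

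**Figure D5:**
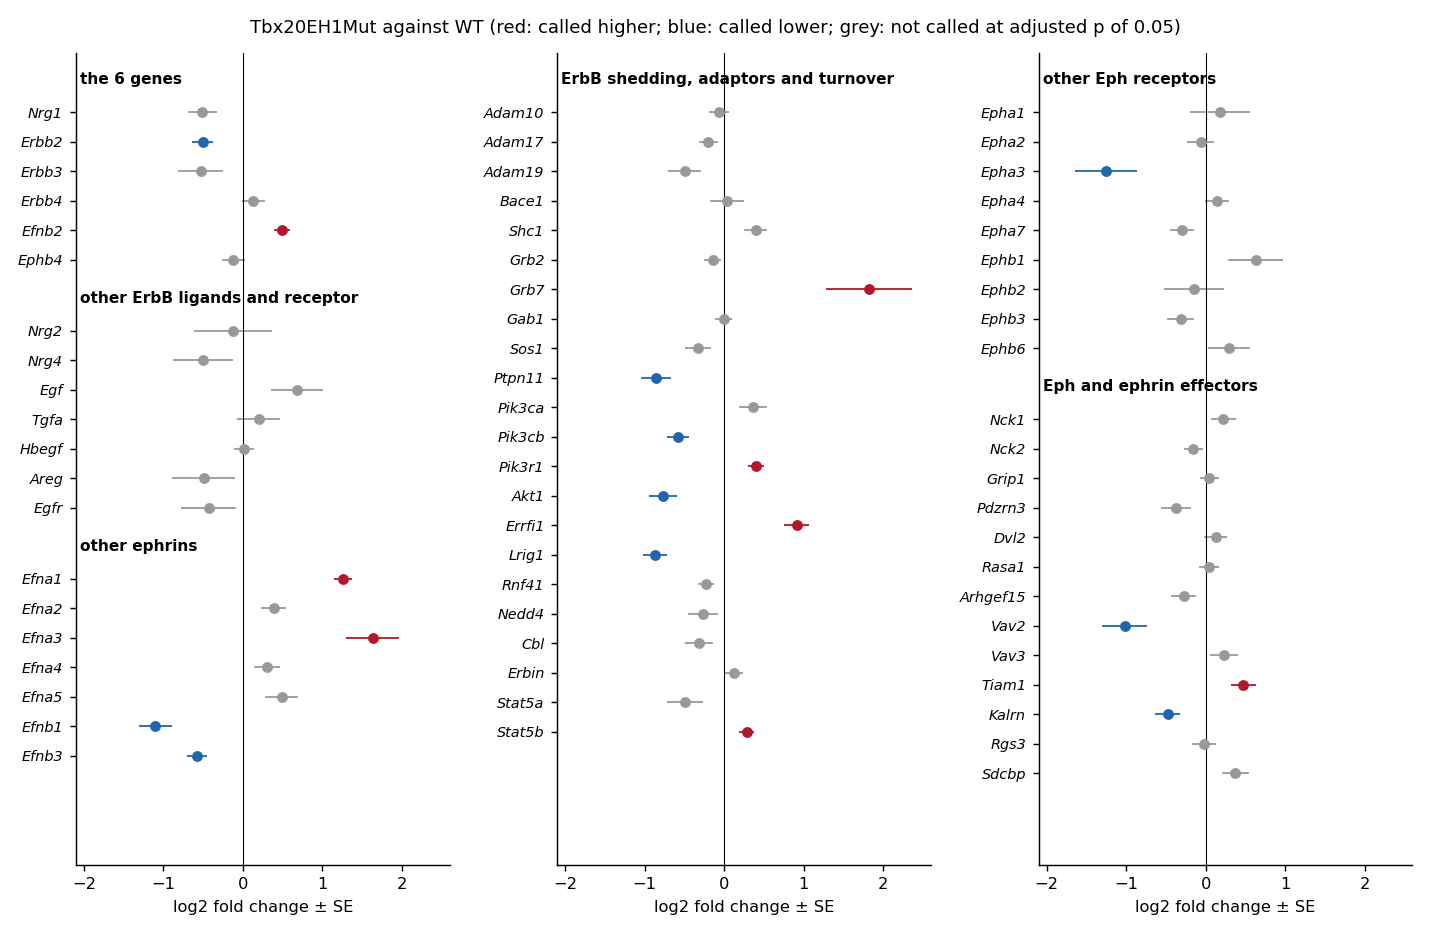
Log2 fold change ± SE of mutant over WT for the 6 genes and for the tested genes of 5 lists of ErbB and Eph/ephrin signalling. Red and blue points were called higher and lower at an edgeR adjusted p of at most 0.05 and grey points were not called; Efnb2 is to the right of 0 while Efnb1 and Efnb3 are to the left.

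In the wider trabeculation network, 4 of 27 genes rose and 6 fell, or 37.0% against the 29.3% of all genes, with a median log2 fold change of −0.11. *Nppa*, the natriuretic peptide of working chamber and trabecular myocardium, fell from 456 ± 113 to 143 ± 22.7 CPM (log2 fold change −1.67, SE 0.192, edgeR adjusted p = 0.000394), and *Gja5*, the connexin of trabeculae and arteries, fell from 58.4 ± 16.1 to 17.8 ± 5.32 CPM (log2 fold change −1.72, SE 0.251, edgeR adjusted p = 0.00135). *Sema3e*, a secreted semaphorin, rose from 0.492 ± 0.278 to 2.05 ± 0.721 CPM. The remaining calls, named after their values were seen, were *Dll4*, *Hey1* and *Irx3* higher and *Angpt1*, *Hapln1*, *Tbx5* and *Hand2* lower. Of these, *Angpt1*, a myocardial ligand that signals in the opposite direction to NRG1, from muscle to endocardium, fell from 82.2 to 26.0 CPM on average (log2 fold change −1.66, SE 0.129, edgeR adjusted p = 4.6e-05), more than any of the 6 genes. *Cdkn1c*, a cell cycle inhibitor and the most abundant gene of the network list, was at 1778 ± 273.3 and 1617 ± 339.6 CPM (edgeR adjusted p = 0.577).

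Since *Efnb2* marks arterial and *Ephb4* venous endothelium, both classes were counted, beside the 29.3% of all genes called. Of 9 arterial genes 5 rose and 2 fell, the median of their log2 changes being 0.76, and of 4 venous genes 2 rose and none fell, with a median of 0.54. The arterial genes that fell were *Gja5*, given above, and *Nrp1*, a co-receptor for VEGF and semaphorins named after its value was seen, at a log2 fold change of −0.64. The arterial list shares *Sox17* with the endothelial markers and *Gja5*, *Hey1* and *Dll4* with the trabeculation list. *Bmx*, an arterial kinase, rose from 8.23 ± 1.89 to 19.0 ± 2.96 CPM, and *Nr2f2*, a transcription factor of venous identity, from 67.4 ± 14.1 to 111 ± 10.7 CPM. *Aplnr*, the apelin receptor of venous endothelium, rose from 7.0 ± 2.47 to 15.9 ± 3.98 CPM, while *Unc5b*, the most abundant arterial gene, was at 191 ± 40.5 and 163 ± 11.6 CPM (edgeR adjusted p = 0.249). Against these, the log2 fold change of *Efnb2* was 0.49 and that of *Ephb4* −0.12.

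The genes with profiles most like those of the 6 were taken by Pearson correlation of log2 CPM over the 8 libraries, among 10481 named genes. The points share library depth and the length trend, so the values describe likeness only. For *Efnb2* they were *Kit*, the receptor for stem cell factor (r = 0.991), and *Pcsk6*, a proprotein convertase (r = 0.986), which went from 14.8 to 40.9 and from 16 to 48.9 CPM on average. For *Erbb2* they were *Man1c1*, a Golgi mannosidase (r = 0.996), and *Stt3b*, a subunit of the oligosaccharyltransferase (r = 0.994). For *Nrg1* they were *Adss* (r = 0.986) and *Gpalpp1* (r = 0.974), for *Erbb3* *Uhrf1bp1* (r = 0.995) and *Taok2* (r = 0.993), for *Erbb4* *Akap5* (r = 0.955) and *Ggta1* (r = 0.950), and for *Ephb4* *Sox12* (r = 0.984) and *Pnpla6* (r = 0.970). None of the 6 genes was among the closest profiles of another.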

How the data were processed

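RNA was extracted from pooled whole hearts, poly-A selected and sequenced. The authors deposited raw counts per Ensembl gene, 1 table per library, not normalized; the submitters' processing notes name Trimmomatic 0.36, STAR 2.5.2b and GRCm38/mm10, and the counting tool and strand setting are not given in the sources used here. Symbols were matched by Ensembl identifier for 48970 genes; of the 49056 genes also in GENCODE M21, 91.4% had the same span. Counts were analysed in edgeR 4.0.16 (R 4.3.3) with filterByExpr, TMM scaling and the quasi-likelihood test of genotype over all 8 libraries, after a test on simulated data. Levels are CPM on TMM-scaled library sizes. Ratios used exact permutation tests over 70 arrangements (Python 3.11.15).

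The 6 genes and all lists were chosen with earlier results of these data known. Named besides them are, per list, up to 3 called genes of largest change averaging 1 CPM or more, the most abundant gene, and for each of the 6, the 2 closest profiles among genes averaging 5 CPM or more. Alternatives were other scalings, filters and tests (DESeq2 1.42.0, limma 3.58.1), a replicate block, leaving out libraries and a length offset. Within each genotype every pair of libraries differed by more than counting noise. The result of 1 further marker list is not reported here. P-values measure the spread between these libraries, each a pool of 3 hearts.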

Additional observations from a re-analysis of the deposited data

How the results depend on the processing

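*Efnb2* rose under all 10 alternatives other than leaving out 1 library, and in all 8 fits without 1 library (0.45 to 0.56); *Erbb2* passed in the same 10 but in 5 of the 8 (−0.62 to −0.41). *Nrg1* passed with library size alone (−0.58, adjusted p = 0.0488, edgeR), with DESeq2 (−0.52), without WT replicates 1 and 2 together (−0.56) and in 1 of 8 fits without 1 library (−0.64 to −0.40). Without 1 library the log2 fold changes ran from −0.70 to −0.24 for *Erbb3*, from 0.04 to 0.25 for *Erbb4* and from −0.19 to 0.015 for *Ephb4*, and the count of all genes called from 3001 to 6586, with 3061, 3001 and 3028 without WT replicate 3, WT replicate 4 and mutant replicate 4 against 5024 with all libraries. DESeq2 called 6201 genes. The log2 ratios ran from −0.070 to 0.087 for *Nrg1* per *Erbb2*, the sign turning in 4 of 8, from −0.70 to −0.49 for *Nrg1* per *Erbb4*, from 0.51 to 0.68 for *Efnb2* per *Ephb4*, from −0.72 to −0.52 for *Erbb2* per *Erbb4* and from −0.87 to −0.45 for *Erbb3* per *Erbb4*. The number of the 6 genes whose genotypes did not overlap went from 3 to 1 with library size alone. The cause of these shifts was not tested.

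With the replicate block the log2 fold changes were −0.48 for *Nrg1* (adjusted p = 0.102), 0.49 for *Efnb2* (0.0287), −0.49 for *Erbb2* (0.0430), −0.50 for *Erbb3*, 0.13 for *Erbb4* and −0.11 for *Ephb4* in edgeR, with 3945 genes called. The labels do not say whether the replicate numbers pair the libraries. Deviations of same-numbered libraries correlated at −0.25, 0.32, 0.04 and 0.06, which shows no pairing but cannot exclude one. For ratios, the sign-flip test over 4 pairs cannot go below 0.125 and was not run. The foregut list had between 3 and 11 genes called over the alternatives. The shallowest values were those of *Nrg1* and *Erbb3*, with as few as 258 and 132 counts in a library.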
